A study of Homo sapiens with 4 samples.

Results

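The miR-320 family, miR-484 and miR-451a are microRNAs (miRNAs) grouped here because miR-320a, miR-484 and miR-451a are known from earlier work to mature outside the usual pathway and the other miR-320 names are near copies. Members were found by name, as every row called miR-320a, miR-320b, miR-320c, miR-320d, miR-320e, miR-484 or miR-451a, with or without an arm suffix. That gave 5 rows of the 826 in the count table, namely miR-320a, miR-320b, miR-320c, miR-320d and miR-484. The names miR-320e and miR-451a had no row and are not analysed here. The cells were H661, an established human lung cancer line, kept in RPMI1640 with fetal bovine serum. DMSO, the solvent, was given to 2 samples and 2.5 µM entinostat, which inhibits class I histone deacetylases, to 2 others, for 8 h according to the labels. Small RNA of each sample was sequenced as 1 library. No label says whether the replicates came from separate cultures, so the p-values below cover only how far these libraries differ, possibly for technical reasons.

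Most miRNA precursors are cut from a long primary transcript by the nuclear enzyme Drosha and then trimmed to the mature length by Dicer in the cytoplasm. Precursors of miR-320a and miR-484 are known as an exception. RNA polymerase II makes them directly as short transcripts whose capped 5′ end is the precursor's own end, so that Dicer is needed but Drosha is not. The precursor of miR-451a is cut by Drosha but is too short for Dicer and is finished by the slicing activity of AGO2, in cells of the red blood lineage above all. Whether the copies miR-320b, miR-320c and miR-320d take the capped route was not measured here.

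The mature sequences show how close the miR-320 copies are to each other. Sequences of miR-320b, miR-320c, miR-320d, miR-320e and miR-484 came from RefSeq (GRCh38.p14) and are written 5′ to 3′, with the seed, bases 2 to 8, in capitals.
miR-320b: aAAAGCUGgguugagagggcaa
miR-320c: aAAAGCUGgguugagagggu
miR-320d: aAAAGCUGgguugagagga
miR-320e: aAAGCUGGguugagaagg
miR-484: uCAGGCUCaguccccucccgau
The miR-320b, miR-320c and miR-320d sequences have the same seed and differ only at the 3′ end. The first 19 bases of miR-320b and miR-320c are the same, and miR-320d shares its first 18 bases with each of them. A read that ends before those positions fits all 3 names. The sequence of miR-320a was not used here, so how far its reads can be told from those of the copies is not shown, and the counting rule for such reads is not given in the sources used here. Single counts of family members, and ratios between them, are therefore uncertain. The annotated miR-320e starts later, which moves its bases 2 to 8 to another seed. It shares 15 bases in a row with miR-320b once the first base of miR-320b is passed over. One further name in the RefSeq table, miR-4429, has the miR-320b seed, and it had no row. The seed of miR-484 was shared by miR-3155a and miR-3155b, neither of which had a row. For comparison, 22.2% of the 729 rows with a sequence shared their seed with another row. The mature miR-484 sequence was 63.6% G or C, against a median of 52.2% over those 729 rows, and miR-320b and miR-320c were at 50% each.

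The hairpins lie in different kinds of place in the genome. The 2 hairpins that give the same mature miR-320b are printed with the mature sequence in capitals, to show its place towards the 3′ end.
MIR320B1 at chr1:116671746-116671817, plus strand, GRCh38: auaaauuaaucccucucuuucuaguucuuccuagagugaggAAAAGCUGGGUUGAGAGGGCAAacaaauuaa
MIR320B2 at chr1:224257040-224257110, minus strand, GRCh38: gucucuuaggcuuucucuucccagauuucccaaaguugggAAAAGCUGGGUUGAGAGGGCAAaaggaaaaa
The mature sequence takes bases 42 to 63 of 72 in MIR320B1 and bases 41 to 62 of 71 in MIR320B2. GENCODE release 29 places MIR320B1 outside any other gene and MIR320B2 in an intron of NVL, on the same strand. The hairpins MIR320C1 and MIR320C2 (chromosome 18, 21683518 to 21683589 and 24321675 to 24321746, plus strand) lie opposite ABHD3 and OSBPL1A without touching an exon. MIR320D1 (chromosome 13, 40727816 to 40727887, minus strand) and MIR320D2 (chromosome X, 140926160 to 140926231, minus strand) lie between genes. In all 6 of these hairpins the mature miRNA is in the 3′ portion. MIR484 (chromosome 16, 15643294 to 15643372, plus strand) differs in both respects. Its mature miRNA takes bases 8 to 29 of 79, near the annotated 5′ end, and the hairpin overlaps an exon of NDE1 annotated as untranslated, on the same strand. NDE1 encodes a centrosome protein that works with dynein.

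A start site of transcription near the hairpin's own start is what the capped route would need, so the distance was read from the annotation. The MIR484 hairpin begins 27 bases downstream of an annotated NDE1 start on its strand. The nearest annotated start on the same strand was 9890 bases away or more for each of the 6 hairpins of miR-320b, miR-320c and miR-320d. The hairpin of miR-320a was not analysed here. Within 100 bases of a start lay 41 of the 533 hairpins whose mature names have a row, or 7.69%. These distances use other genes' transcripts only and describe the annotation, not the RNA of these cells. They cannot show which route a precursor takes, since a short transcript of its own would not be among those used.

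Abundance of the 5 rows fell in a clear order that was the same in every library. The unit is CPM, or counts for every 1e+06 in the library, after scaling by edgeR's TMM factors, which centre the bulk of the rows on no change. In bulk RNA, fewer cells with a miRNA and less of it in each cell cannot be told apart. All mature miRNAs are of similar length, so no length correction was made, although adapter ligation and PCR can favour some sequences over others. In DMSO replicates 1 and 2, miR-320a was at 6911 and 6508 CPM, and in entinostat replicates 1 and 2 at 6479 and 6998 CPM. It ranked 29th of 826 rows by mean level, while miR-484 ranked 66th. The DMSO libraries had 2143 and 2047 CPM of miR-484, and the entinostat libraries 1980 and 1697 CPM. For miR-320a the treatments overlapped, while for miR-484 each entinostat library was below each DMSO library, with entinostat replicate 2 the lowest.

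The 3 copies of the family were far rarer. For miR-320b, DMSO gave 290.7 and 277.5 CPM and entinostat 235.3 and 246.2 CPM, without overlap. For miR-320c, DMSO gave 75.9 and 69.4 CPM and entinostat 64.3 and 80.3 CPM, so the entinostat libraries lay on either side of the DMSO libraries. The rarest row, miR-320d, rested on 19 and 6 counts in the DMSO libraries and 13 and 10 in the entinostat libraries, or 20.3, 10.7, 23.9 and 13.2 CPM. From miR-320a through miR-484, miR-320b and miR-320c to miR-320d, the lowest library of each row was above the highest library of the next. Near-identical ends could still move counts between the family's rows.

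**Figure D1:**
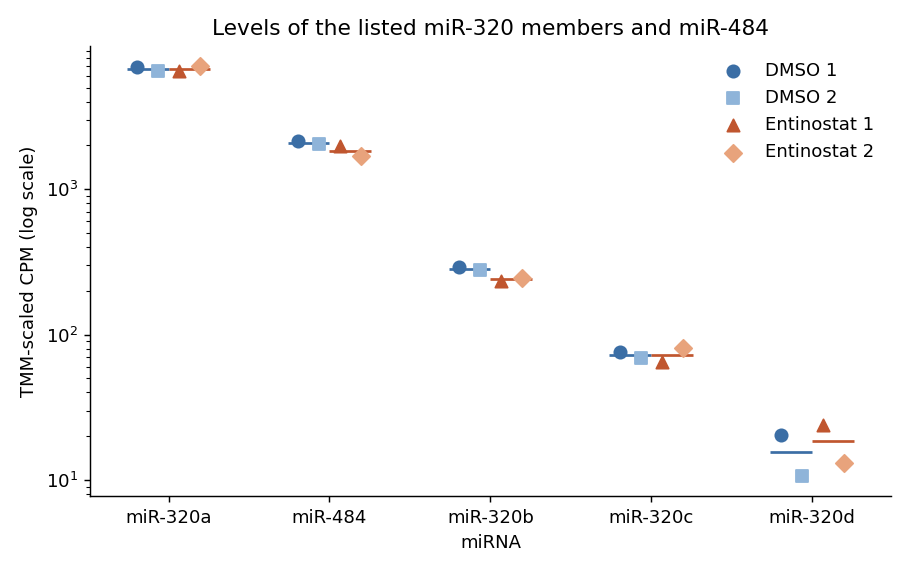
TMM-scaled CPM on a log axis for the 5 listed miRNAs, with 1 point per library and short lines for the mean of each treatment (n = 2). The 5 miRNAs occupy separate ranges, and the treatments are apart for miR-484 and miR-320b only.

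Together the 4 miR-320 rows made up a small part of the miRNA counts in every library. Their share was 0.728% in DMSO replicate 1 (exact Clopper-Pearson 95% interval 0.711 to 0.745%) and 0.687% in replicate 2 (0.666 to 0.709%). With entinostat it was 0.676% (0.654 to 0.698%) and 0.740% (0.721 to 0.760%). These intervals cover counting error only, and within each treatment those of the replicates did not overlap. The replicates of a treatment differed by more than the treatment means did. Summed, the family averaged 7082 ± 305.9 CPM in the DMSO libraries and 7070 ± 378.2 CPM in the entinostat libraries (SD, n = 2), a log2 ratio of -0.0025. That ratio was 0.11 with upper quartile factors, under which the median change over the tested rows also rose, from 0.0047 to 0.12 on the log2 scale.

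None of the 5 miRNAs passed the test of treatment. Fitted on all 401 rows with enough counts, the edgeR quasi-likelihood test called 0 of them at a Benjamini-Hochberg adjusted p under 0.05, or 0%. It gave 27 rows an unadjusted p under 0.05, with 0 of the members among them, and DESeq2 and limma-voom also called 0 rows. All 5 members passed the filter on low counts. Their log2 fold changes had 3 values above 0 and 2 below, with a median of 0.00071, against 208 above, 193 below and a median of 0.0047 over all 401 tested rows. Since miR-320a and miR-320c lay so close to 0, that tally moved with the processing. It was 2 above and 3 below under several alternatives, limma-voom and DESeq2-type size factors among them. With DESeq2, with a mean CPM filter of 10 and with the 5 most abundant miRNAs left out, it was 1 above and 4 below. The same 1 and 4 came without entinostat replicate 2, and 0 above and 5 below without DMSO replicate 2. The treatments did not overlap for 2 of 5 members, both lower with entinostat. Among all tested rows, 20% were without overlap and lower with entinostat, and 20.7% without overlap and higher.

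For miR-320a, the archetype of the capped route, the DMSO mean was 6710 ± 285.1 CPM and the entinostat mean 6738 ± 366.8 CPM (SD, n = 2). The log2 fold change was 0.0061 with a 95% interval of -0.18 to 0.20, a fold of 0.881 to 1.15 (edgeR adjusted p = 0.990). This was the narrowest interval of the 5. The value changed sign under 5 alternatives, staying between -0.06 and 0.12, so no direction can be given.

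The lower levels of miR-484 with entinostat did not pass the threshold. Its means were 2095 ± 67.5 and 1838 ± 199.9 CPM (SD, n = 2). On the log2 scale the change was -0.19 with an interval of -0.43 to 0.04 (edgeR adjusted p = 0.595). A fall to 0.744 of the DMSO level and a rise to 1.03 times it are both within that interval. The size rested on entinostat replicate 2. The log2 fold change was -0.09 without that library and -0.32 without entinostat replicate 1 (edgeR adjusted p = 0.990 and 0.196). It was -0.08 with upper quartile factors.

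For miR-320b the means were 284.1 ± 9.35 and 240.7 ± 7.70 CPM (SD, n = 2). The difference exceeded the SD of either pair, but an SD from 2 libraries is poorly known. As a share of all counts, the exact counting intervals of miR-320b were 0.0256 to 0.0326% and 0.0236 to 0.0325% in the DMSO libraries. In the entinostat libraries they were 0.0195 to 0.0278% and 0.0214 to 0.0287%. These intervals overlapped across treatments, which by itself neither shows nor excludes a difference. The log2 fold change was -0.24 with an interval of -0.54 to 0.06 (edgeR adjusted p = 0.595). It lay below 0 under all 17 alternatives, between -0.30 and -0.12, and the value nearest 0 came from upper quartile factors. These alternatives reuse the same libraries, in which the treatments did not overlap, so the shared sign adds no support. Near-zero values were fitted for miR-320c, at 0.00071 with an interval of -0.50 to 0.50. The interval of miR-320d, at 0.12, ran from -1.09 to 1.33, so that a change of 2-fold either way lay within it. For all but miR-320d, that is 4 of 5, the interval stayed within a 1.5-fold change up or down.

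**Figure D2:**
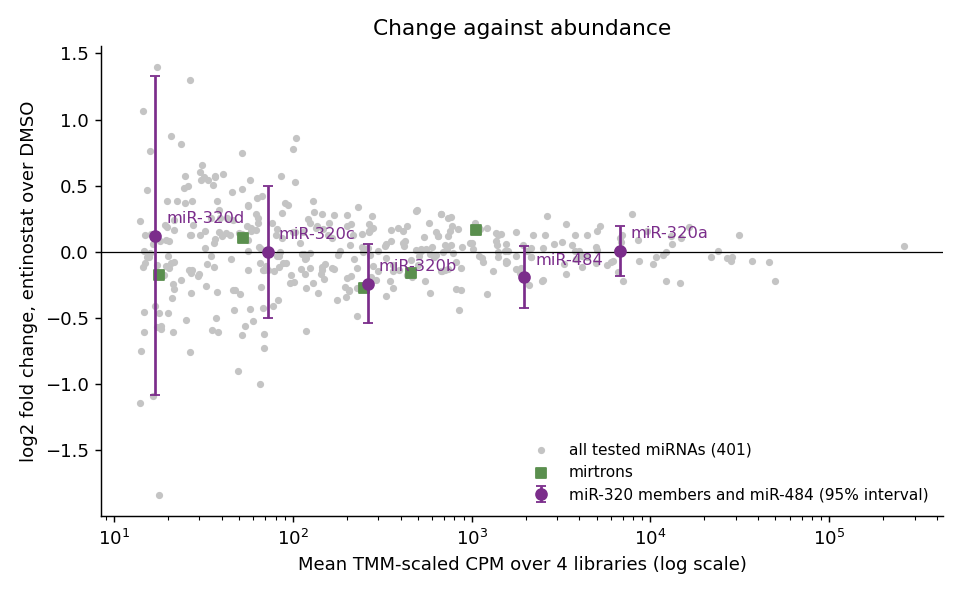
Log2 fold change of entinostat over DMSO against mean TMM-scaled CPM on a log axis, for all 401 tested miRNAs (grey), the tested mirtrons (green) and the 5 miRNAs described here (purple, bars are 95% intervals). All 5 intervals include 0 and they widen from miR-320a to miR-320d.

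Ratios between the members do not depend on how libraries are scaled. Within the family, miR-320a took 94.7% and 94.8% of the counts in the DMSO libraries and 95.2% and 95.4% in the entinostat libraries. The share of miR-320b was 3.98% (exact 95% interval 3.53 to 4.47%) and 4.04% (3.44 to 4.71%) with DMSO. It was 3.46% (2.89 to 4.10%) and 3.35% (2.90 to 3.86%) with entinostat. The replicates were closer to each other than to the other treatment. Their counting intervals overlapped across treatments, but overlap of separate intervals is no test of a difference. There were 23.8 and 23.5 counts of miR-320a for each count of miR-320b with DMSO, and 27.5 and 28.4 with entinostat. The share of miR-320c overlapped between treatments, at 1.04% and 1.01% against 0.946% and 1.09%. For miR-320d it did as well, at 0.278% and 0.155% against 0.351% and 0.179%.

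The ratio of miR-484 to the family was lowest in entinostat replicate 2. Per 100 counts of the 4 miR-320 rows there were 29.4 of miR-484 in DMSO replicate 1 (95% interval 27.9 to 30.9) and 29.8 in replicate 2 (27.9 to 31.9). Entinostat replicate 1 had 29.1 (27.2 to 31.2), inside the range of intervals of the DMSO libraries. Entinostat replicate 2 had 23.1 (21.7 to 24.6), below the intervals of the other 3 libraries. These intervals cover counting error only, not variation between libraries. Both parts of the ratio differed between the entinostat libraries. The miR-320 rows summed to 7337 CPM in replicate 2 against 6802 CPM in replicate 1, and miR-484 was at 1697 against 1980 CPM. The entinostat mean minus the DMSO mean was -3.48, or -0.489 without entinostat replicate 2 and -6.46 without entinostat replicate 1.

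**Figure D3:**
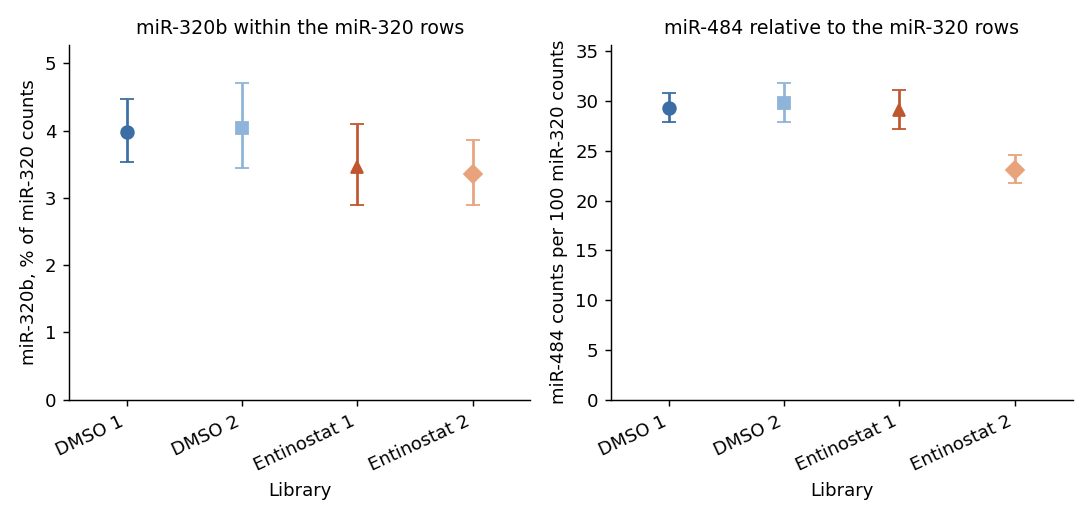
Left, miR-320b as a percentage of the counts of the 4 miR-320 rows; right, miR-484 counts per 100 counts of those rows, by library, with 95% intervals of counting error. The miR-320b intervals overlap between treatments, and on the right entinostat replicate 2, at 23.1, is below the other 3 libraries, which lie between 29.1 and 29.8.

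Because miR-484 is rich in G and C, its difference was set beside that of rows of like composition. This look was added after its values were seen. Of 236 tested rows at 100 CPM or more, 209 had a sequence, and 43 of these other than miR-484 were within 5 percentage points of its GC content. Between entinostat replicates 2 and 1, the median log2 difference of these 43 rows was 0.05, while miR-484 was at -0.22. Between the treatments, their median log2 fold change was -0.06, with 29 of 43 below 0, against -0.19 for miR-484 and a median of 0.0054 over the 209 rows. A shift of like size appeared between the DMSO libraries, where the 43 rows had a median of -0.05 for replicate 2 minus replicate 1, with 30 of 43 below 0, and miR-484 was at -0.07. Across the 209 rows, GC content had a Pearson correlation of -0.27 with the treatment difference, -0.17 with the DMSO replicate difference and 0.29 with the entinostat replicate difference. The rows share their libraries, so these values describe the libraries only. The part of GC content in the miR-484 value was not tested.

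The rows most like each leading member across the 4 libraries were found among tested rows at 100 CPM or more, by the root mean square difference of row-centred log2 levels. With 4 libraries this is a description only. Nearest to miR-484 were miR-328-3p (0.0233), miR-615-3p (0.0278) and miR-421 (0.0286), against a median of 0.168 over all 235 other rows. Each of these, like miR-484, had its lowest level in entinostat replicate 2, at 2884, 10212 and 388.3 CPM. They were picked for a profile like that of miR-484, so this likeness is no separate observation. Nearest to miR-320a were miR-500a-3p (0.0200), miR-3180-5p (0.0206) and miR-129-5p (0.0223), against a median of 0.117. Their log2 fold changes, between 0.0075 and 0.03, are close to that of miR-320a by the same choice.

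Mirtrons, whose precursors are whole introns released by splicing, also bypass Drosha and serve as a comparison. Of 12 mirtron names listed, 9 had a row, with 11 rows in all, of which 5 were tested and 0 called. Their log2 fold changes had 2 values above 0 and 3 below (median -0.16, or 0.0047 over all tested rows). The most abundant, miR-877-5p, had 1074 and 917.8 CPM in the DMSO libraries against 915.3 and 1314 CPM, so the treatments overlapped. The other arm of that intron, miR-877-3p, was lower in each entinostat library, at 513.0 and 457.1 against 420.9 and 448.9 CPM (log2 fold change -0.16, -0.44 to 0.11; edgeR adjusted p = 0.678). For miR-1226-3p the levels were 295.0 and 252.6 against 204.0 and 248.8 CPM (log2 fold change -0.27, -0.63 to 0.08; edgeR adjusted p = 0.605). The 11 mirtron rows made up 0.195% and 0.173% of the DMSO libraries and 0.160% and 0.213% of the entinostat libraries, below the miR-320 rows in every library. Of 5 names of miRNAs cut from small nucleolar RNAs, 4 had rows and only miR-664a-3p was tested (log2 fold change 0.10, -0.56 to 0.77).

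With both arms of a hairpin listed, the arm that is kept can be compared, but the members allowed no such comparison. None of the 5 names carries an arm suffix, as is true of 149 of the 826 rows, and no second arm of their hairpins had a row. Among the 487 names that carry a suffix, 190 had rows for both arms, or 39.0%.

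The neighbourhood of miR-451a was also without rows. Its hairpin (chromosome 17, 28861369 to 28861440, minus strand, GRCh38) lies beside those of miR-144 and miR-4732, and opposite that of miR-451b, and none of these names had a row. Of the 5 names fixed as markers of the red blood lineage, only miR-486 had one, as miR-486-5p, which tissues other than blood express as well. Its levels were 230.8 and 217.0 CPM in the DMSO libraries against 187.5 and 240.9 CPM, so the treatments overlapped (log2 fold change -0.06, -0.42 to 0.31). Of the white blood cell names miR-142, miR-150 and miR-223, only miR-150-5p had a row, with 0 and 2 counts in the DMSO libraries and 3 and 0 in the others. Of 6 epithelial names, 3 had rows, led by miR-200c-3p. It had 33.1 and 24.9 CPM in the DMSO libraries against 42.3 and 46.1 CPM, higher with entinostat without overlap but not past the threshold (log2 fold change 0.57, -0.13 to 1.28; edgeR adjusted p = 0.595). The others were miR-205-5p, with 0 and 2 against 9 and 4 counts, and miR-200b-3p, with 3 and 0 against 0 and 0.

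The depth limits what a missing row or a low count can show. Totals ran from 547875 to 938559 counts. In no library did any of the 826 rows hold a count of 1, whereas 83 to 113 rows per library held a count of 2, and the lowest total of a row was 2. How such counts were treated is not given in the sources used here, so a listed 0 has no known upper limit and none is given for miR-320e or miR-451a.

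**Figure D4:**
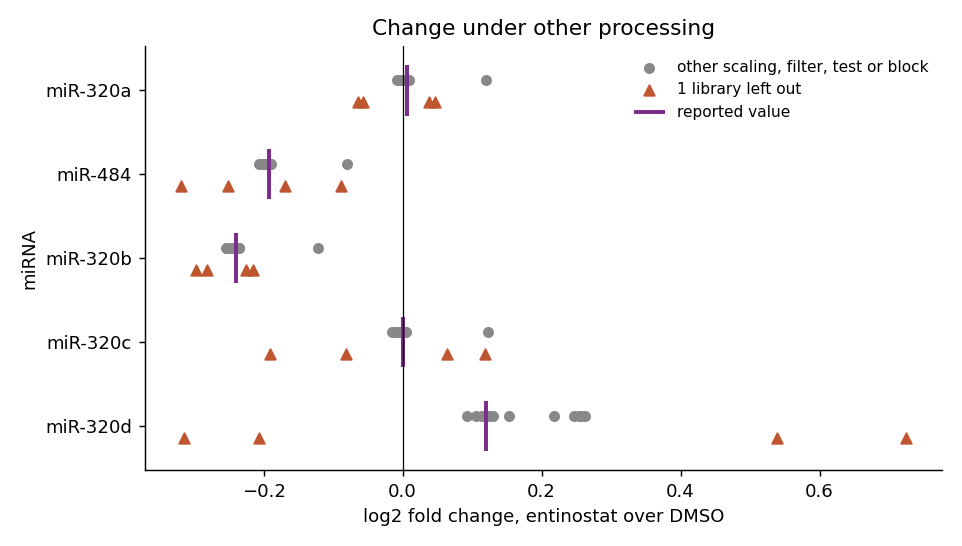
Log2 fold change of entinostat over DMSO for the 5 miRNAs as reported (purple line), under other scalings, filters, tests and blocks (grey circles) and with 1 library left out (orange triangles). Only miR-484 and miR-320b keep to the same side of 0 throughout, from -0.32 to -0.08 and from -0.30 to -0.12. All settings reuse the same libraries, in which the treatments did not overlap for these rows.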

How the data were processed

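TRIzol RNA went into New England Biolabs small RNA libraries, per the labels' protocols, and the submitters' processing notes name bcl2fastq 2.18. Aligner, counter, annotation and build: not given in the sources used here. The authors deposited a table of whole-number counts, 1 row for each mature name. The deposited CPM values equal count over column total times 1e+06, within 0.0001 in 100% of rows.

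Rows were filtered with filterByExpr (minimum count 10, minimum total 15; 401 of 826 kept), scaled by TMM and fitted in edgeR 4.0.16 (R 4.3.3) for its quasi-likelihood test. Treatment was the only term, p-values were adjusted over all 401 rows, and 95% intervals use the standard error of the fit. Dispersion was 0.00648 in common. The fit was tested on simulated data. Alternatives used DESeq2 1.42.0 and limma 3.58.1. Sequences came from RefSeq and positions from GENCODE 29, which need not match the authors' annotation. Profile likeness used log2 of CPM plus 1. Members were taken by name. Named besides them were same-seed rows, neighbours of miR-451a, the 3 nearest profiles of 2 members and up to 3 rows per list. Members and lists, recalled without a database, were chosen with earlier results of these data known. Figures used Python 3.11.15 and matplotlib 3.10.9.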

Additional observations from a re-analysis of the deposited data

How the results depend on the processing

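None of the 5 miRNAs was called under any of the 17 alternatives. The count of called rows, 0 as reported, was 4 with the edgeR likelihood ratio test and ran from 0 to 5 with 1 library left out, the 5 arising without entinostat replicate 1; in such fits a lone sample is assumed to vary like the others. With the replicate number as a replicate block 0 rows were called, the value of miR-484 was -0.19 and that of miR-320c -0.01295. Same-numbered libraries did not deviate together (r = -0.116 over 401 rows), and the crossed pairing, added after the data were seen, called 0 rows. For miR-320a the sign changed with a mean CPM filter of 10 (-0.00769), DESeq2 (-0.00124) and the 5 most abundant miRNAs left out (-0.00601), and values ran from -0.064 to 0.047 with 1 library left out. For miR-320c it changed with DESeq2-type size factors (-0.00418), no filter (-0.000305), the CPM filter (-0.0146), DESeq2 (-0.0110), limma-voom (-0.00174), the 5 most abundant left out (-0.0130) and limma-trend on deposited CPM plus 1 (-0.0108) or 0.5 (-0.0109). With 1 library left out, miR-320c ran from -0.19 to 0.12 and miR-320d from -0.32 to 0.72. The summed family's log2 ratio was 0.11 with upper quartile factors and ran from -0.074 to 0.038 with 1 library left out. The cause of these changes was not tested. Depth limits miR-320d most, at 48 counts in all.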
